A study of Sus scrofa domesticus with 12 samples.

Results

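The collagens described here are collagen VI and a set of less abundant non-fibrillar collagens of the muscle interstitium. Of 9 chains listed by name (COL6A1, COL6A2, COL6A3, COL8A1, COL8A2, COL12A1, COL14A1, COL15A1 and COL16A1), 5 have a row among the 11506 rows of the abundance table, which holds 18 collagen chains in all. COL6A1, COL6A2, COL6A3 and COL8A1 were found by symbol, and COL15A1 was found by its RefSeq gene ID in the row named LOC100620394. COL8A2, COL12A1, COL14A1 and COL16A1 are not analysed here. The chains with a row are therefore those of collagen VI, VIII and XV. Collagens XII, XIV and XVI, the members of the list that belong to the fibril-associated collagens with interrupted triple helices, are not among them.

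RNA-seq was performed on the peroneus tertius (PT) muscle of female Yorkshire Cross pigs 12 weeks after surgery. In volumetric muscle loss (VML) injury, a block of muscle was cut from the middle of the PT muscle, and in sham-operated limbs the muscle was exposed and left whole. The 12 libraries came from single limbs of 11 pigs, namely 2 sham-operated limbs, 2 non-repaired VML limbs, 2 VML limbs filled with a hyaluronic acid hydrogel (Hya-repaired) and 6 VML limbs repaired with an implant of acellular extracellular matrix (ECM-repaired). Pig 017 contributed its left limb to the non-repaired group and its right limb to the Hya-repaired group. The labels mark every ECM-repaired limb as SIS, small intestinal submucosa, whereas the study's text divides these limbs between SIS and urinary bladder matrix, so they were kept as 1 group. No genetic modification is given for any group, and the tissue was whole muscle, in which all cell types are mixed. The labels state no age, and the study's text describes the pigs as young adults at the end of the 12 weeks. Analgesic and antibiotic drugs were given in the week after surgery. The study's text also reports lasting swelling in SIS-repaired limbs, most of them with wound complications. Affected pigs received further care, including irrigation, debridement, added drugs and partial removal of the implant. The labels do not mark which ECM-repaired limbs had this care, so it cannot be told apart from the repair. The levels are in TPM, a relative transcript abundance scaled by transcript length and to a common library total, so genes can be compared within a limb. Between limbs TPM are only relative. The median log2 difference between VML-injured and sham-operated muscle was 0.73 over all genes tested, so values after rescaling are also given. The labels give only an average depth over the libraries, and since TPM keep no read counts, how deeply any 1 limb was sequenced, and how precise its values are, cannot be stated.

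Collagen VI is built from 1 α1, 1 α2 and 1 α3 chain, the products of COL6A1, COL6A2 and COL6A3. The chains assemble inside the cell and are secreted as beaded microfilaments that lie in the interstitium and against the basement membrane of each muscle fiber. In muscle they are made mainly by interstitial fibroblasts, and defects of these genes cause the Bethlem and Ullrich muscular dystrophies. Collagen VIII, of which COL8A1 encodes a chain, is a short-chain collagen that forms networks beneath endothelium and in remodeling vessel walls. Collagen XV, encoded by COL15A1, carries chondroitin sulfate and sits at the outer face of the basement membranes of muscle fibers and capillaries.

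The chains of collagen VI and collagen VIII were far higher in every injured limb than in either sham-operated limb, whereas the level of COL15A1 overlapped between injured and sham-operated muscle. COL6A1 rose 30.0-fold, COL6A2 24.96-fold, COL6A3 19.9-fold and COL8A1 102-fold between sham-operated and VML-injured muscle, where VML-injured denotes the 3 injured groups averaged with equal weight. COL15A1 had a fold change of 1.25, with a 95% interval of 0.769 to 2.03. In whole muscle, fewer cells of a type and less RNA per cell cannot be told apart, and a change in TPM may be either.

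COL6A1 was measured at 111 and 424 TPM in the sham-operated limbs of pigs 025 and 026. In the non-repaired limbs it was 6885 TPM in pig 017 and 5375 TPM in pig 023, and in the Hya-repaired limbs it was 12273 TPM in pig 016 and 3587 TPM in pig 017. Over the 6 ECM-repaired limbs the lowest level was 3244, the median 8123 and the highest 12313 TPM. The lowest injured limb, the ECM-repaired limb of pig 018, was thus well above the higher of the sham-operated limbs, and the injured groups overlapped one another. On the log2(TPM + 0.5) scale the difference between VML-injured and sham-operated muscle was 4.91 ± 0.593 (SE, limma adjusted p = 2.83e-05). Among the 11506 rows, COL6A1 ranked 572nd and 230th in the sham-operated limbs and between 5th and 48th in the injured limbs, where it made up 0.403 to 1.52% of the listed TPM.

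**Figure D1:**
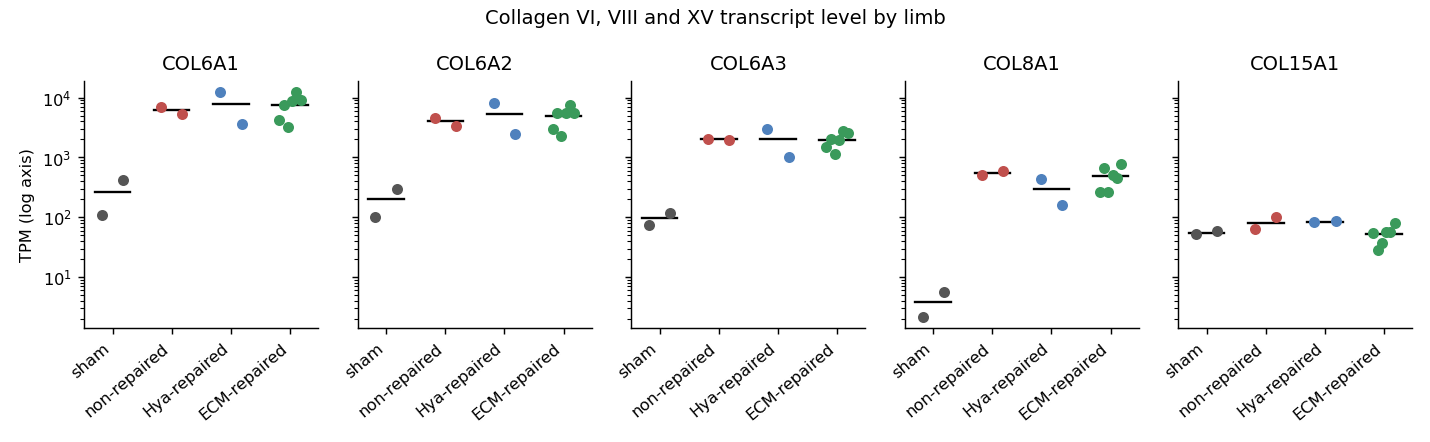
TPM (log axis) of COL6A1, COL6A2, COL6A3, COL8A1 and COL15A1 in each limb of the 4 groups, with a point for each limb and a bar at the group mean. All injured limbs lie above both sham-operated limbs for the collagen VI chains and COL8A1, and the groups overlap for COL15A1.

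COL6A2 was at 101 and 298 TPM in the sham-operated limbs. It was 4616 and 3421 TPM in the non-repaired limbs of pigs 017 and 023, 8064 and 2512 TPM in the Hya-repaired limbs of pigs 016 and 017, and 2306, 5467 and 7680 TPM at the lowest, median and highest of the ECM-repaired limbs. Like COL6A1, it was lowest among injured limbs in pig 018 and next lowest in the right, Hya-repaired limb of pig 017, and no injured limb came near the sham-operated limbs. Its log2 difference was 4.64 ± 0.531 (SE, limma adjusted p = 1.89e-05).

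COL6A3, which encodes the longest of the collagen VI chains, was at 74.6 and 119.8 TPM in the sham-operated limbs. It was 2069 and 1998 TPM in the non-repaired limbs, 3009 and 1019 TPM in the Hya-repaired limbs of pigs 016 and 017, and 1126, 2002 and 2757 TPM at the lowest, median and highest of the ECM-repaired limbs. The non-repaired limbs were close to each other, and the Hya-repaired limbs were the highest and the lowest of all injured limbs. The log2 difference was 4.32 ± 0.412 (SE, limma adjusted p = 5.45e-06).

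COL8A1 was barely present in sham-operated muscle, at 2.13 and 5.58 TPM. It was 516 and 599 TPM in the non-repaired limbs of pigs 017 and 023, 435 and 160.1 TPM in the Hya-repaired limbs of pigs 016 and 017, and 269, 485 and 780.2 TPM at the lowest, median and highest of the ECM-repaired limbs. Every injured limb was far above the sham-operated limbs, and the Hya-repaired limb of pig 017 was the lowest of them. The log2 difference was 6.67 ± 0.474 (SE, limma adjusted p = 8.19e-07), which ranked 12th among the 8782 genes tested. COL8A1 moved from rank 6519 and 5110 in the sham-operated limbs to between 166 and 549 in the injured limbs.

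COL15A1 was at 52.0 and 59.0 TPM in the sham-operated limbs. It was 63.7 and 99.7 TPM in the non-repaired limbs of pigs 017 and 023, 82.3 and 86.4 TPM in the Hya-repaired limbs of pigs 016 and 017, and 27.9, 55.2 and 79.4 TPM at the lowest, median and highest of the ECM-repaired limbs. The ECM-repaired limbs lay on both sides of the sham-operated limbs, and all 4 injured limbs without ECM lay above them. The log2 difference between VML-injured and sham-operated muscle was 0.32 ± 0.323 (SE, limma adjusted p = 0.405). Because most genes were higher in injured muscle in TPM, with a median log2 difference of 0.73 over all genes tested, the sign of this value depended on the scaling. After rescaling each library by a trimmed mean of log ratios, which brought that median to -0.01, COL15A1 differed by -0.49 (limma adjusted p = 0.119).

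In the VML-injured comparison 4 of the 5 chains were called higher at an adjusted p under 0.05 and 0 lower. This count is read against a background in which 49.4% of all genes tested were called higher and 7.66% lower. The median log2 difference was 4.64 over the 5 chains and 0.73 over all genes. After rescaling, 28.7% of genes were called higher and 28.7% lower, and the same 4 chains were called higher, with log2 differences of 4.09 for COL6A1, 3.82 for COL6A2, 3.50 for COL6A3 and 5.93 for COL8A1. The sham-operated limbs differed from each other, with COL6A1 3.83-fold, COL6A2 2.96-fold and COL8A1 2.62-fold higher in pig 026 than in pig 025. Without pig 025 the log2 difference was 3.94 for COL6A1, 3.86 for COL6A2, 3.98 for COL6A3 and 6.06 for COL8A1. Without pig 026 it was 5.87, 5.42, 4.66 and 7.27, respectively, and all 4 stayed called in both cases.

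Each injured group was also compared with sham-operated muscle on its own, and 4 of 5 chains were called higher in each. These comparisons share the same sham-operated limbs. In the ECM-repaired group, in which 48% of all genes were called higher and 10% lower, the log2 differences were 4.98 for COL6A1, 4.71 for COL6A2, 4.32 for COL6A3 and 6.83 for COL8A1. In the non-repaired group, with 45.1% of genes called higher and 1.18% lower, they were 4.81, 4.52, 4.42 and 7.12, respectively. In the Hya-repaired group, with 33.9% of genes called higher and 3.76% lower, they were 4.93, 4.70, 4.20 and 6.05. For COL15A1 the differences were -0.16 in the ECM-repaired, 0.52 in the non-repaired and 0.60 in the Hya-repaired group (limma adjusted p = 0.701, 0.294 and 0.252). After rescaling, COL15A1 was called lower in the ECM-repaired group, by -0.95 (limma adjusted p = 0.00829), where 29.7% of all genes were called lower and 29.3% higher.

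**Figure D2:**
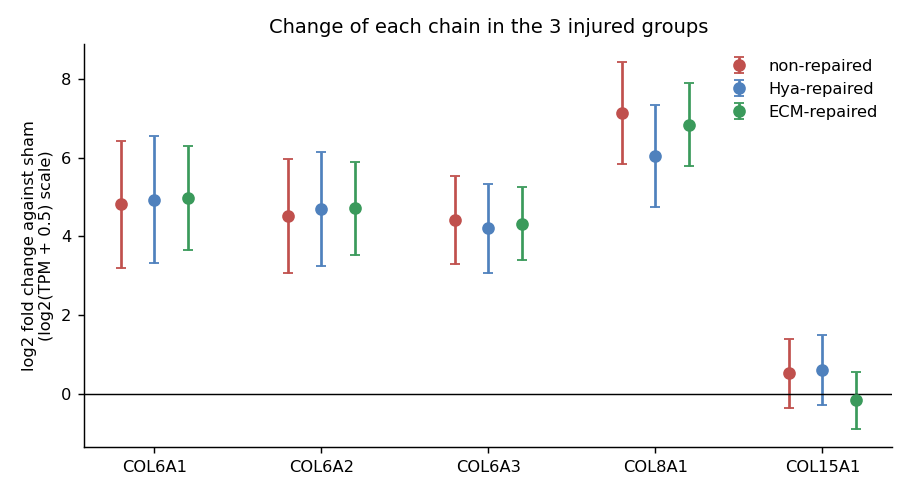
Log2 difference from sham-operated muscle (vertical axis, log2(TPM + 0.5) scale) of each chain in each of the 3 injured groups, with 95% confidence intervals from limma. The intervals of the 3 groups overlap for every chain, those of collagen VI and COL8A1 lie above 0, and those of COL15A1 include 0.

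For the collagen VI chains and COL8A1, the order of the groups differed between chains. Neighbors in that order overlapped by limb, except at the step from sham-operated to injured muscle. By group mean, COL6A1 was at 267 ± 221 TPM (SD, n = 2) in sham-operated, 6129.6 ± 1068 TPM (SD, n = 2) in non-repaired, 7531 ± 3349 TPM (SD, n = 6) in ECM-repaired and 7930.2 ± 6142 TPM (SD, n = 2) in Hya-repaired muscle. COL6A2 followed the same order. For COL8A1 the order was 3.86 ± 2.44 TPM (SD, n = 2) in sham-operated, 298 ± 194 TPM (SD, n = 2) in Hya-repaired, 494 ± 209.6 TPM (SD, n = 6) in ECM-repaired and 558 ± 58.8 TPM (SD, n = 2) in non-repaired muscle. The COL6A3 means of the injured groups were nearly equal, from 1992 TPM in ECM-repaired to 2033 TPM in non-repaired muscle. For COL15A1 there was no such step. Its sham-operated mean, 55.5 TPM, lay between 52.2 TPM in ECM-repaired and 81.7 TPM in non-repaired muscle.

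The comparison of repaired with other injured limbs asks whether an implant changed these collagens 12 weeks after the injury. No chain was called between injured groups, and limma called 0 of 8782 genes (0%) in each of these comparisons. At an unadjusted p under 0.05 there were 114 genes between ECM-repaired and injured limbs without ECM, 71 between ECM-repaired and non-repaired, 206 between ECM-repaired and Hya-repaired and 196 between Hya-repaired and non-repaired limbs. For the ECM-repaired group against the mean of the Hya-repaired and non-repaired groups, the log2 difference was 0.11 for COL6A1 (95% interval -0.94 to 1.15), 0.11 for COL6A2 (-0.83 to 1.04), 0.01 for COL6A3 (-0.71 to 0.74) and 0.25 for COL8A1 (-0.59 to 1.09). The widest of these intervals, that of COL6A1, ran from 0.521 to 2.22 on the fold scale. Without both limbs of pig 017 all 4 changed sign, to -0.25, -0.21, -0.36 and -0.16.

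COL15A1 was 52.2 ± 17.8 TPM (SD, n = 6) in ECM-repaired limbs and 83.0 ± 14.8 TPM (SD, n = 4) in injured limbs without ECM, and only the ECM-repaired limb of pig 024, at 79.4 TPM, lay among the limbs without ECM. The log2 difference was -0.72 (95% interval -1.29 to -0.15), with an unadjusted p of 0.0172 in limma and an adjusted p of 0.9995 over all genes. In the same comparison COL4A1 differed by -0.43 and COL4A2 by -0.56 (unadjusted p in limma of 0.279 and 0.182). The median log2 difference was -0.60 over the 14 muscle fiber markers and -0.32 over the 9 endothelial markers, with 0 called in either list, against -0.03 over all genes. Endothelial markers summed to 196 to 718 TPM in ECM-repaired limbs and 299 to 667 TPM in those without ECM. Muscle fiber markers made up 1.42 to 6.90% of the listed TPM in ECM-repaired limbs and 1.54 to 11.04% in those without ECM, and the part of these markers' cells in the difference of COL15A1 was not tested. Between Hya-repaired and non-repaired limbs, COL8A1 had the widest gap of the chains, with a log2 difference of -1.07 (95% interval -2.37 to 0.22, limma adjusted p = 0.912).

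Ratios within a library depend little on how the libraries are scaled, apart from the effect of the added 0.5 on genes of low TPM, and each chain was therefore also set against the fibrillar collagens of the same limb. The reference was the mean log2(TPM + 0.5) of COL1A2, COL3A1, COL5A1, COL5A2 and COL11A1, which all rose in VML-injured muscle, by 3.49 for COL11A1 up to 6.08 for COL1A2. COL1A1, which encodes the other chain of collagen I, is listed at 0 in every library and could not be part of it. Differences of the ratios were tested by two-sided exact permutation over the 66 splits of the 12 limbs, for which 0.0152 is the smallest p possible, and 10 ratios and shares were tested in this way for injured against sham-operated limbs. These 10 include the ratios of COL8A1 to COL6A1 and of COL15A1 to collagen IV, which were chosen after the values were seen. For the ratios to the fibrillar chains, the fold changes had already shown the direction, so their p-values are no independent support either.

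Relative to the fibrillar collagens, COL6A3 and COL15A1 were lower and COL8A1 was higher in injured than in sham-operated limbs, while the ratios of COL6A1 and COL6A2 overlapped. The log2 ratio of COL6A1 was 2.52 ± 0.353 (SD, n = 10) in injured and 2.71 ± 0.829 (SD, n = 2) in sham-operated limbs, a difference of -0.19 (exact permutation p = 0.591). For COL6A2 the difference was -0.46 (exact permutation p = 0.182). These values leaned on single sham-operated limbs, since without pig 025 they were -0.78 and -0.86 and without pig 026 they were 0.40 and -0.055. These p-values missed the threshold with 2 sham-operated limbs and do not show equal proportions. With COL1A2 and COL3A1 alone as the reference, COL6A2 differed by -1.30 (exact permutation p = 0.0152).

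The log2 ratio of COL6A3 was 1.56 and 1.48 in the sham-operated limbs and 0.54, 0.66 and 0.94 at the lowest, median and highest of the 10 injured limbs. The groups did not overlap, and the difference was -0.81 (exact permutation p = 0.0152). The log2 ratio of COL8A1 was -3.28 and -2.83 in the sham-operated limbs and -1.89, -1.42 and -0.88 at the lowest, median and highest of the injured limbs. COL8A1 thus rose by more than the mean of the fibrillar chains, by 1.61 (exact permutation p = 0.0152), but against COL1A2 and COL3A1 alone the difference was 0.77 (exact permutation p = 0.106). That mean includes COL11A1, under 1 TPM in both sham-operated limbs, whose rise the added 0.5 understates.

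The log2 ratio of COL15A1 was 1.04 and 0.46 in the sham-operated limbs and -5.46, -4.29 and -2.68 at the lowest, median and highest of the injured limbs. The reference is a mean of logarithms and gives equal weight to COL11A1, which was at 0.476 and 0.970 TPM in the sham-operated limbs. Against the arithmetic mean TPM of the 5 chains, COL15A1 was 0.300 and 0.227 of it in the sham-operated limbs of pigs 025 and 026 and 0.00185 to 0.0125 of it in injured limbs. The difference of the log2 ratios was -5.00 (exact permutation p = 0.0152), which the fold changes of COL15A1 and of the reference had already shown. In a ratio chosen after the values were seen, COL15A1 was set against COL4A1 and COL4A2, chains of the basement membrane collagen IV, which rose by 1.62 and 2.001 on the log2 scale (COL4A1 was not called after rescaling, and neither was called without pig 025). That ratio was 0.30 and -0.93 in the sham-operated limbs and from -2.61 to -1.25 in the injured limbs, a difference of -1.55 (exact permutation p = 0.0152). Because the ratio was chosen with its values known, this p is no independent support.

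**Figure D3:**
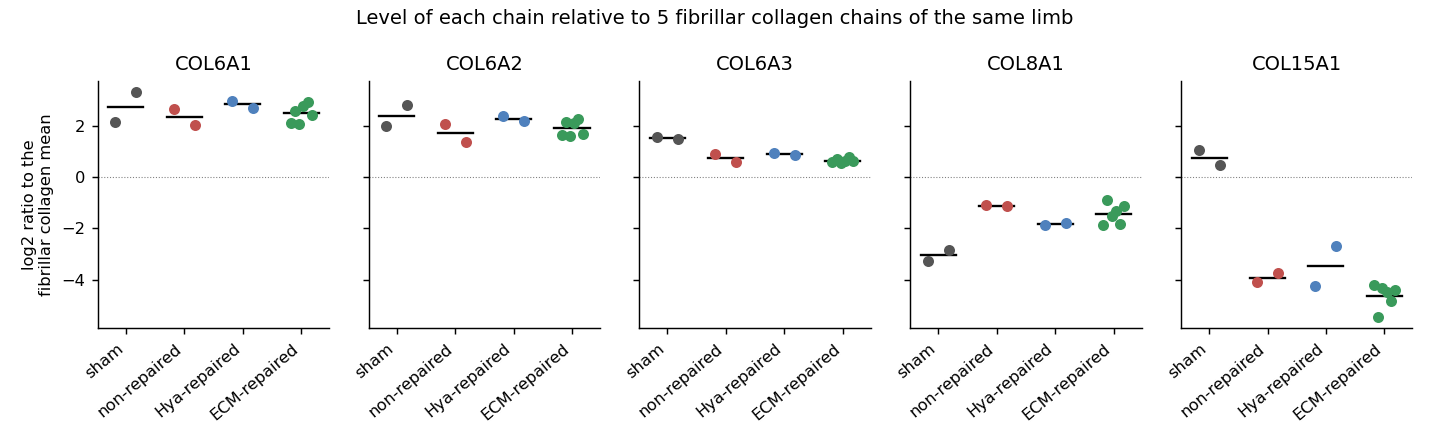
Log2 ratio of each chain to the mean of 5 fibrillar collagen chains of the same limb (vertical axis), with a point for each limb and a bar at the group mean. COL6A1 and COL6A2 overlap between sham-operated and injured limbs, COL6A3 and COL15A1 lie lower in all injured limbs, and COL8A1 lies higher.

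Among injured limbs, 8 ratios and shares were compared between ECM-repaired limbs and those without ECM, over 210 splits. The log2 ratio of COL15A1 to the fibrillar chains was -5.46, -4.44 and -4.19 at the lowest, median and highest of the ECM-repaired limbs. It was -4.10 and -3.73 in the non-repaired limbs of pigs 017 and 023, and -4.25 and -2.68 in the Hya-repaired limbs of pigs 016 and 017. The groups overlapped at the ECM-repaired limb of pig 013 and the Hya-repaired limb of pig 016, and the difference was -0.93 (exact permutation p = 0.00952). Without the Hya-repaired limb of pig 017 this difference kept its sign but shrank to -0.59 and missed the threshold (exact permutation p = 0.0833). Without both limbs of that pig it was -0.63 (exact permutation p = 0.179). Fewer limbs leave fewer splits, which also raises the smallest p possible. For COL6A3 the difference was -0.19 (exact permutation p = 0.0524). It passed the threshold without the non-repaired limb of pig 023 (-0.27, exact permutation p = 0.0119) or the ECM-repaired limb of pig 022 (-0.22, exact permutation p = 0.0476). With each other limb left out it missed the threshold, with an exact permutation p of up to 0.131, so the result depended on single limbs. For COL6A1, COL6A2 and COL8A1 the exact permutation p was 0.695, 0.710 and 0.852.

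The proportions of the 3 collagen VI chains, which join 1 to 1 to 1 in the protein, were similar over the injured limbs. COL6A1 made up 48.5 to 54.2%, COL6A2 31.7 to 36.8% and COL6A3 12.1 to 18.5% of the collagen VI TPM. The sham-operated limb of pig 026 fell within these ranges, at 50.4, 35.4 and 14.2%. In the sham-operated limb of pig 025, COL6A3 was 26.1% and COL6A1 38.7%. The log2 ratio of COL6A2 to COL6A1 differed by -0.26 between injured and sham-operated limbs (exact permutation p = 0.0606), and that of COL6A3 to COL6A1 by -0.62 (exact permutation p = 0.106). Without pig 025 these differences were -0.079 and 0.01, so both rested on that limb.

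**Figure D4:**
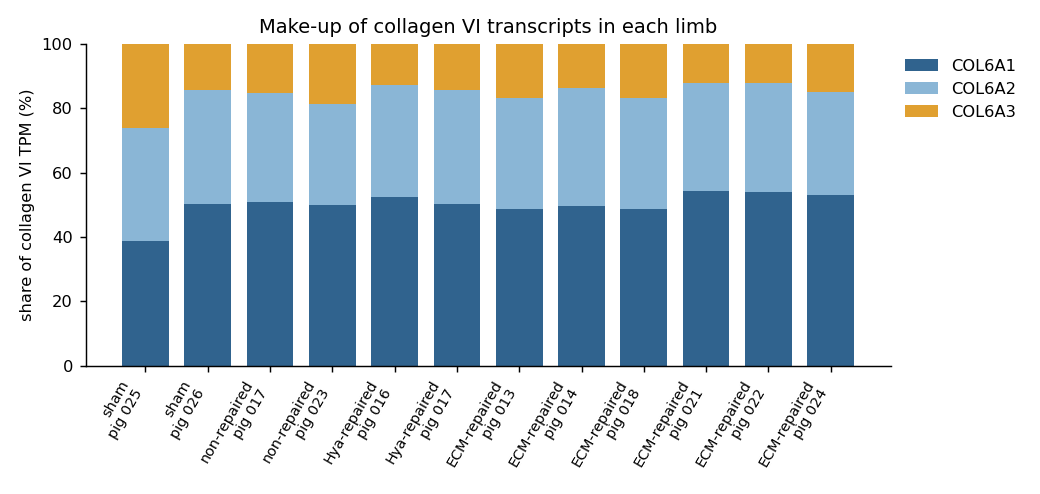
Share of the summed COL6A1, COL6A2 and COL6A3 TPM (percent, vertical axis) held by each chain in each limb. The bars of the 10 injured limbs and of the sham-operated limb of pig 026 are alike, and the sham-operated limb of pig 025 has the largest share of COL6A3, at 26.1%.

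COL8A1 also rose by more than COL6A1. In a ratio chosen after the values were seen, the log2 ratio of COL8A1 to COL6A1 was -5.40 and -6.12 in the sham-operated limbs and between -4.82 and -3.16 in the injured limbs, a difference of 1.80 (exact permutation p = 0.0152). The fold changes had already shown this direction, so this p is no independent support. In plain TPM, the level of COL8A1 was 0.0193 and 0.0132 of that of COL6A1 in the sham-operated limbs of pigs 025 and 026, and 0.0355 to 0.112 of it in injured muscle. Among injured limbs this ratio was highest in the non-repaired limb of pig 023 and lowest in the Hya-repaired limb of pig 016.

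Of the TPM of all collagen chains in the table, the 5 chains held 26.2 and 37.1% in sham-operated and 11.6 to 22.8% in injured limbs. This total has COL1A1 at 0 and leaves out COL8A2, COL12A1, COL14A1 and COL16A1, so these are not shares of all collagen transcripts. The groups did not overlap, and the mean share fell by 14.01 percentage points (exact permutation p = 0.0152). The difference was -19.5 percentage points without pig 025 and -8.55 without pig 026. COL1A2 and COL3A1, at 26417 and 38752 TPM on average in injured muscle, took up most of the remainder. With these genes left out of the total, the share of the 5 chains rose by 14.9 percentage points in injured limbs (exact permutation p = 0.0152), so the direction depended on which chains were counted. Between ECM-repaired limbs and injured limbs without ECM the share differed by 0.24 percentage points (exact permutation p = 0.924).

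The other collagen chains had 13 rows, of which 9 passed the filter on low values, COL11A1 among them only through injured groups. These 9 were called higher in VML-injured muscle, with a median log2 difference of 3.49, where 49.4% of all genes were called higher. The count was 7 after rescaling, with 28.7% of all genes called higher, and it was 5 with sham-operated pig 025 left out, with 27.7% of all genes called higher and 1.42% lower. None of the closest relatives of the listed chains (COL6A5, COL6A6, COL9A1, COL9A2, COL9A3, COL10A1, COL18A1, COL19A1, COL20A1, COL21A1 and COL22A1) was analysed here.

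Receptors through which cells bind collagens made up the next list, which was chosen with earlier results of these data known. Of 10 receptor genes tested, 7 rose in VML-injured muscle and 0 fell, with a median log2 difference of 1.89, against 49.4% of all genes called higher, 7.66% called lower and a median of 0.73. Of those that rose, ANTXR1, ITGA11 and DDR2 were under 1 TPM in at least 1 sham-operated limb and passed the filter only through injured groups. The count thus includes genes that were testable only because they were high after injury. Among the receptors tied to collagen VI, ANTXR2, a receptor that takes up collagen VI from the matrix, rose from 7.04 to 15.96 TPM in sham-operated to 41.2 to 165 TPM in injured limbs, by 2.98 on the log2 scale (limma adjusted p = 1.52e-04). ANTXR1 rose by 2.05 and CSPG4, the NG2 proteoglycan that binds collagen VI at the cell surface, by 1.91 (limma adjusted p = 0.00423 and 0.0193). Of the integrins, the shared β1 subunit ITGB1 rose by 2.14 and ITGA11, a fibroblast receptor for fibrillar collagen, by 2.97, from at most 0.106 TPM in sham-operated limbs to 1.49 to 9.15 TPM in injured limbs. ITGA1, whose product binds collagen IV and VI, had a log2 difference of -1.23 (limma adjusted p = 0.127), ITGA2 one of 1.86 (limma adjusted p = 0.0823), and the collagen receptor kinase DDR1 one of -0.36 (limma adjusted p = 0.565). After rescaling, with 28.7% of all genes called higher and 28.7% lower, 5 receptors rose and 2 fell, the latter being ITGA1 by -2.02 and DDR1 by -1.12, and CSPG4 and ITGA10 were no longer called. Without the sham-operated limb of pig 025, 4 receptors rose (ANTXR2, ITGA11, ITGB1 and DDR2), where 27.7% of all genes were called higher and 1.42% lower.

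Most of the listed matrix proteins that bind collagen VI or decorate collagen fibrils rose, in a list chosen with earlier results of these data known. Of 12 listed, TNXB is not analysed here, and of the 11 tested 10 rose and 0 fell, with a median log2 difference of 4.27, set against the same background of 49.4% higher and 7.66% lower. Biglycan (BGN) and decorin (DCN), small proteoglycans that bind the collagen VI tetramer, rose by 5.71 and 3.49 (limma adjusted p = 9.60e-07 and 2.87e-06). BGN was 27.3 and 71.6 TPM in the sham-operated limbs and from 1349.9 to 3731 TPM in the injured limbs. MATN2, of the matrilins that link collagen VI to other matrix, rose by 4.20 (limma adjusted p = 6.13e-06), whereas MATN4 stayed between 0.862 and 10.8 TPM in injured limbs with a difference of 0.45 (limma adjusted p = 0.579). COMP, a pentameric glycoprotein of tendon and cartilage that binds fibril surfaces, had the largest difference of the list, 6.72 (limma adjusted p = 2.30e-05). Dermatopontin (DPT), fibromodulin (FMOD), lumican (LUM) and tenascin C (TNC) rose by 5.56, 5.43, 4.27 and 4.95, and the matrix glycoprotein thrombospondin 1 (THBS1) by 3.42 (limma adjusted p = 1.70e-04). TNC was under 1 TPM in at least 1 sham-operated limb and passed the filter only through injured groups. The 10 stayed called after rescaling, and 9 did without the sham-operated limb of pig 025, FBN1 being the exception.

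**Figure D5:**
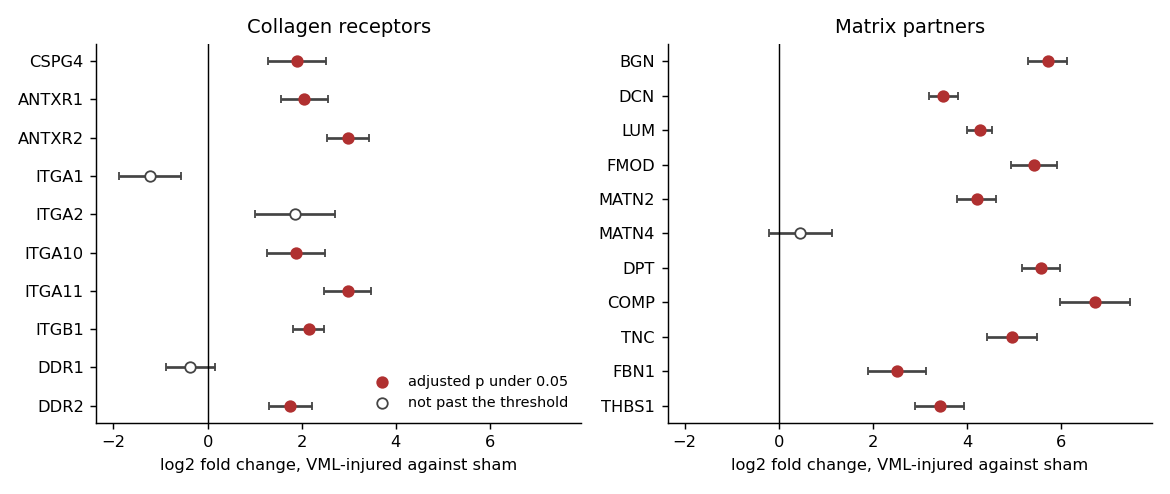
Log2 difference between VML-injured and sham-operated muscle (horizontal axis) of collagen receptors (left) and matrix partners (right), with bars of 1 SE on each side. Filled points are past an adjusted p of 0.05, which holds for 7 of 10 receptors and 10 of 11 partners.

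Across the 10 injured limbs, the collagen VI chains moved together and COL15A1 moved apart. Pearson's r of log2(TPM + 0.5) was 0.992 between COL6A1 and COL6A2, 0.947 between COL6A1 and COL6A3, 0.669 between COL6A1 and COL8A1, and from -0.06 to 0.18 between COL15A1 and the other 4 chains. Among 4975 genes with a mean of at least 10 TPM, those most like COL6A1 were COL6A2, IFT172 (0.973) and FN3KRP (0.972), and those most like COL6A2 were COL6A1, FAM234A (0.976) and AEBP1 (0.974), a collagen-binding matrix protein. For COL6A3 they were FN3KRP (0.981), ATF6B (0.977) and GHDC (0.973). COL8A1 was most like LOX (0.980), the lysyl oxidase that starts collagen crosslinking, followed by LOC100622258 (0.976) and DPYSL3 (0.971). COL15A1 was most like SARS (0.972), HSP70.2 (0.969) and NSFL1C (0.968). These are descriptions over 10 limbs that share the scaling of their libraries and the mixture of cells, and the top 3 of so many genes are high by selection.

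Markers of the cell types in the tissue moved with the injury, in a comparison in which 49.4% of all genes were called higher and 7.66% lower. Genes of the muscle fiber (14 of 14 with a row) summed to 21.2 and 22.1% of the listed TPM in the sham-operated limbs and from 1.42 to 11.04% in the injured limbs, and the defining genes of the labelled tissue were thus present in both. Of these 14 genes, 9 were called lower, and 13 after rescaling, where 28.7% of all genes were called lower. Fewer were called without pig 025, which leaves 1 sham-operated limb. Fibroblast markers rose in 9 of 9 tested, from a sum of 311 to 375 TPM to one of 3304 to 8059 TPM, macrophage markers in 5 of 5, from 16.1 to 24.8 TPM to 254 to 707 TPM, and tendon markers in 3 of 3, from 26.03 to 123.7 TPM to 1083 to 4523 TPM. Of the tendon markers, TNMD passed the filter only through injured groups. DCN and LUM are both fibroblast markers and matrix partners, and FMOD is a tendon marker and a partner. Endothelial markers, of the cells beside which collagens VIII and XV are laid down, rose in 1 of 9 (ENG), with sums of 207 to 378 TPM in sham-operated and 196 to 718 TPM in injured limbs. This call was lost without pig 025, and after rescaling 0 endothelial markers rose and 1 fell, with the median log2 difference going from 0.13 to -0.66. Smooth muscle and pericyte markers rose in 2 of 5 tested (after rescaling 1 rose and 1 fell), with sums of 239.9 to 579.8 TPM and 832 to 1442 TPM, and adipocyte markers in 0 of 4, with 66.7 to 87.3 TPM and 44.3 to 224.5 TPM. MYH11, NOTCH3, CSF1R, SCX and MKX are not analysed here, and LEP was below the filter and at 0 in at least 1 injured limb. The Hya-repaired limb of pig 017, which had the lowest COL6A3 and COL8A1 of the injured limbs, had the largest share of muscle fiber genes among them, 11.04%. The ECM-repaired limb of pig 018, which had the lowest COL6A1 and COL6A2, had a share of only 2.45%. The smallest share, 1.42%, was in the ECM-repaired limb of pig 014, where COL6A1 was 7415 TPM. The part of these cell types in the differences of the collagens was not tested.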

How the data were processed

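TruSeq libraries of total RNA were sequenced from both ends by the authors, who quantified transcripts with kallisto at its default settings on pig genome build 9.2 and used DESeq2 for differential expression. The TPM values were analyzed as deposited by the authors; the named rows hold 71.5 to 82.7% of a library's full TPM, and 0 columns belong to no sample. DESeq2 was not run, because it needs counts. No batch is given in the labels, and pig numbers in the titles mark separate animals apart from pig 017.

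Genes were tested (8782) if every library of some condition reached 1 TPM. Values were taken as log2(TPM + 0.5), which understates the change of low genes, and fitted with limma 3.58.1 in R 4.3.3 (trend and robust eBayes) over all 12 libraries with a coefficient per condition. P-values were adjusted over all genes tested (Benjamini-Hochberg), with a threshold of 0.05. Ratios within a library were compared by two-sided exact permutation in Python 3.11.15 with numpy 2.4.6; their p-values are unadjusted. The fit was tested on simulated data. RefSeq gene IDs gave a symbol to 618 of the 1833 rows named LOC.

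The text names all listed chains with a row, the fibrillar reference, the genes of the receptor and matrix partner lists, and for each chain the 3 genes with the highest Pearson correlation over injured limbs; COL4A1 and COL4A2 and the ratios marked so were chosen after their values were seen. The chains and lists were chosen with earlier results of these data known. Alternatives were rescaling by trimmed means (30% of ratios and 5% of abundance trimmed) or median of ratios, pseudocounts of 0.1 and 1, no filter or one of 5 TPM, calls of at least 2-fold, eBayes with neither trend nor robust estimation, fits of the compared libraries alone, other reference chains, each limb left out and both limbs of pig 017 left out. Ratios of COL8A2 to COL8A1, COL14A1 to COL12A1 and COL16A1 to COL15A1 were planned and not run.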

Additional observations from a re-analysis of the deposited data

How the results depend on the processing

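The call of COL6A1, COL6A2, COL6A3 and COL8A1 as higher than sham held in each injured group under every alternative listed above, and no chain was called between injured groups under any. The log2 difference of COL15A1 from sham changed sign under trimmed-mean and median-of-ratios rescaling, to -0.49 and -0.50 in VML-injured, -0.48 and -0.47 in non-repaired and -0.041 and -0.066 in Hya-repaired limbs; for ECM-repaired limbs it ranged from -0.29 to 0.0053 with 1 limb left out. With 1 limb left out, the differences between ECM-repaired limbs and injured limbs without ECM ranged from -0.34 to 0.55 for COL6A1, -0.32 to 0.53 for COL6A2, -0.38 to 0.40 for COL6A3 and -0.11 to 0.61 for COL8A1, and without both limbs of pig 017 they were -0.25, -0.21, -0.36 and -0.16. Of the log2 ratios to the fibrillar chains, those between ECM-repaired limbs and the others ranged with 1 limb left out from -0.29 to 0.029 for COL6A1, -0.31 to 0.023 for COL6A2, -0.27 to -0.15 for COL6A3, -0.082 to 0.17 for COL8A1 and -1.11 to -0.59 for COL15A1, and without pig 017 they were 0.028 for COL6A2 and -0.63 for COL15A1. The ratio of COL6A2 to COL6A1 ranged from -0.031 to 0.031 and was 0.042 without pig 017, that of COL6A3 to COL6A1 ranged from -0.18 to 0.016, and the share of collagen TPM from -0.77 to 1.46 percentage points, with -0.56 without pig 017. Between injured and sham-operated limbs the ranges with 1 limb left out were -0.78 to 0.40 for COL6A1, -0.86 to -0.055 for COL6A2, -0.85 to -0.77 for COL6A3, 1.38 to 1.83 for COL8A1 and -5.29 to -4.70 for COL15A1 relative to the fibrillar chains, -0.45 to -0.079 for COL6A2 to COL6A1, -1.24 to 0.012 for COL6A3 to COL6A1, 1.44 to 2.16 for COL8A1 to COL6A1, -2.16 to -0.93 for COL15A1 to collagen IV and -19.5 to -8.55 percentage points for the share. With 1 sham-operated limb left out these tests cannot go below a p of 0.0909. With COL1A2 and COL3A1 alone as the reference, COL6A2 was -1.30 and COL8A1 0.77 against sham, and COL15A1 was -0.84 for ECM-repaired against other injured limbs (exact permutation p = 0.0857); without them in the total, the share differed by 14.9 percentage points. The causes of these shifts were not tested. No paired analysis was possible because pig 017 alone gave limbs to 2 groups, and other replicate numbers were given in accession order. The TPM values give no depth, and 3 of the groups hold 2 limbs each.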
